A study of Mus musculus with 55 samples.

Results

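The nuclear genes of oxidative phosphorylation were followed across sorted blood stem and progenitor cells of mice with and without Tet2, a dioxygenase that oxidises methylated cytosine in DNA. Members were all rows of the count table whose symbol starts with Nduf, Cox4 to Cox8, Uqcr or Atp5, or is Sdha, Sdhb, Sdhc or Sdhd. The 9 rows with -ps in the symbol were left out, which gave 98 of 55421 rows. By complex there were 49 rows of complex I, 4 of complex II, 8 of complex III, 19 of complex IV and 18 of complex V. The complex was assigned by the start of the symbol alone, a rule that put Ndufa4 and Ndufa4l2 with complex I whatever complex their proteins join. The annotation lists 94 of these rows as protein-coding and 4 as processed pseudogenes (Cox6c2, Ndufa11b, Ndufb4c and Ndufs6b), and 8 of the complex I rows are assembly factors of the Ndufaf series.

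The 46 bulk RNA-seq libraries came from bone marrow of C57BL/6 mice. The Tet2-/- mice (KO) carried floxed Tet2 alleles (f/f) and the Mx1-Cre transgene, induced with poly(I:C) in juvenile mice. By the study's account mice were killed months after induction, to stay clear of acute inflammation from the inducer. Mx1-Cre is driven by an interferon-responsive promoter and acts in more tissues than blood. The sources used here do not say whether the wild-type (WT) mice carried the transgene or received poly(I:C), so the Cre, its inducer and the loss of Tet2 cannot be told apart. Long-term stem cells (LT-HSC) were gated as Lin- cKit+ Sca1+ CD48- CD150+ and short-term stem cells (ST-HSC) as the CD150- cells of that gate. Common myeloid progenitors (CMP), granulocyte-macrophage progenitors (GMP), megakaryocyte-erythroid progenitors (MEP) and common lymphoid progenitors (CLP, gated as Lin- cKit+ with intermediate Sca1 and CD127+) completed the set. Each genotype and population had 4 libraries, but LT-HSC and ST-HSC of WT mice had 3, and the labels give 200 sorted cells for a library. The study's legends count mice as its replicates. The labels do not say which mouse gave which library, nor whether libraries of the same number in different populations came from the same mouse.

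Oxidative phosphorylation passes electrons from NADH (complex I) or succinate (complex II, also an enzyme of the citric acid cycle) through ubiquinone to complex III, then by cytochrome c to complex IV, where oxygen is reduced. Complexes I, III and IV pump protons across the inner mitochondrial membrane, and complex V, the ATP synthase, uses the gradient to make ATP. Most subunits are encoded in the nucleus and imported, while 13 are encoded in the mitochondrial genome. Stem cells of the blood are known for low mitochondrial activity, and erythroid precursors for a high demand on mitochondria, which also make heme.

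Libraries held 50458473 to 102148079 counts. Tet2 itself read 2.26 to 41.7 CPM (counts relative to the library's scaled total) in WT libraries and 6.10 to 72.7 CPM in KO libraries. Counts over the whole gene do not isolate the floxed part, so these values do not check the genotype. The libraries labelled CLP went against their label in part. Immunoglobulin genes took 26.4 to 47.0% of the counts in WT and 0.0840 to 32.6% in KO libraries labelled CLP. In any other library they took at most 0.0238%. Of 6 CLP markers, Rag1, a recombinase of lymphoid progenitors, was the 1 at 0 in every WT library of that label. The 6 markers, with the immunoglobulin gene Ighm among them, summed to 146380 to 268717 CPM in WT and 2205 to 132643 CPM in KO libraries labelled CLP. In other libraries they summed to at most 291 CPM. GMP markers summed to 4.77 to 3177 CPM in WT and 2.65 to 12445 CPM in KO libraries labelled CLP, and megakaryocyte markers to at most 8.41 and 1480 CPM. These libraries are called by their label below, and the part of other cells in their values was not tested. Fewer cells of a type in a sort and less RNA per cell cannot be told apart in bulk libraries.

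The summed level of the members, in CPM on library sizes scaled by the trimmed mean of M values (TMM), was highest in MEP in both genotypes. It came to 29594 ± 893 CPM (SD, n = 4) in WT MEP and 29404 ± 1470 CPM (SD, n = 4) in KO MEP. In the stem cells it was 17672 ± 1664 CPM (SD, n = 3) in WT LT-HSC, 16530 ± 3984 CPM (SD, n = 4) in KO LT-HSC, 14849 ± 823 CPM (SD, n = 3) in WT ST-HSC and 15716 ± 3618 CPM (SD, n = 4) in KO ST-HSC. The KO stem cell libraries were spread widely, from 12495 to 21975 CPM in LT-HSC, and overlapped the WT libraries on both sides. CMP stood at 18263 ± 988 CPM in WT and 21226 ± 2046 CPM in KO, and GMP at 17103 ± 311 CPM in WT and 16981 ± 2024 CPM in KO (SD, n = 4 each). Libraries labelled CLP were lowest, with 12380 ± 1076 CPM in WT and 13761 ± 1805 CPM in KO (SD, n = 4 each). Their level depends on the scaling: WT CLP stood at 0.701 of WT LT-HSC in TMM-scaled CPM and at 0.41 as a share of raw counts, and KO over WT was 1.11 and 1.55 by the same measures. The size of the MEP excess moved as well. WT MEP over WT LT-HSC was 1.675 and 1.5 by these measures, and WT MEP over WT GMP 1.73 and 1.553. In WT the means rose in the order CLP, ST-HSC, GMP, LT-HSC, CMP, MEP. The libraries of GMP, LT-HSC and CMP overlapped with their neighbours in this order, while those of CLP, ST-HSC and MEP did not. Every complex was highest in MEP: complex I summed to 8966 ± 516 CPM in WT MEP and 6011 ± 702 CPM in WT LT-HSC, and complex IV to 5998 ± 273 CPM and 3775 ± 408 CPM (SD, n = 4 and 3).

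**Figure D1:**
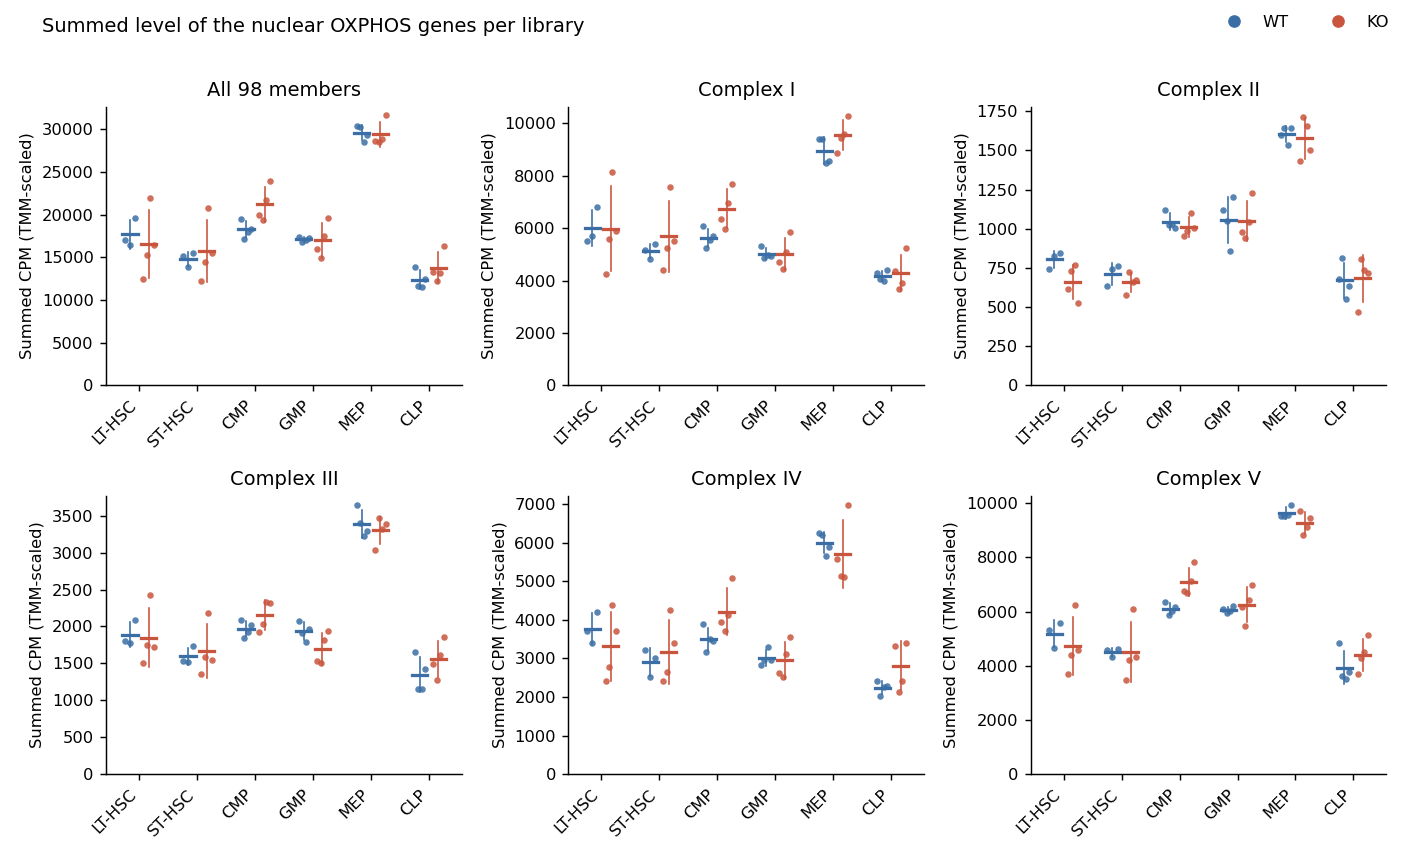
Summed level of the members in CPM on TMM-scaled library sizes (vertical axis) for each population and genotype. Points are libraries, bars are means and whiskers are SD (n = 3 for both WT stem cell groups, n = 4 otherwise); the lowest MEP libraries lie at 28448 CPM in WT and 28552 CPM in KO, above the highest library of any other population at 23933 CPM.

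Per kilobase of transcript, so that genes can be compared with each other, the top members of WT MEP were Cox6b1 at 1318 CPM per kb, Cox6a1 at 1277 CPM per kb and Cox4i1 at 1210 CPM per kb, all subunits of cytochrome c oxidase. In WT LT-HSC the order was Cox4i1 at 1079 CPM per kb, Uqcrb, a small complex III subunit, at 819.9 CPM per kb, and Cox6b1 at 790 CPM per kb. WT GMP were led by Atp5b, the catalytic beta subunit of the ATP synthase, at 859.1 CPM per kb.

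The comparison of Tet2-/- with WT cells asked which members change with the loss of Tet2 in each population. A few subunits were far lower in KO CMP, GMP and MEP, while most members were not. Uqcrfs1, the Rieske iron-sulfur protein of complex III, Cox5a, a subunit of complex IV, Ndufab1, the mitochondrial acyl carrier protein and a complex I subunit, and Ndufaf6, a complex I assembly factor, were the members lower by at least 2-fold at a Benjamini-Hochberg adjusted p under 0.05 in edgeR (called below). In CMP these 4 of 92 members tested were called lower and none higher. In GMP 3 of 92 were called (all but Ndufab1), and in MEP the same 4 as in CMP, of 90 tested. Among all genes tested 3.92% were called lower in CMP, 4.06% in GMP and 4.21% in MEP, so the members' share was near the background in each population. When all 46 libraries shared a single fit, Uqcrfs1 alone was called in GMP, and in MEP Ndufaf6 missed the threshold with an edgeR adjusted p of 0.0589. That fit called Cox4i2, an isoform of a complex IV subunit, higher in KO MEP (adjusted p = 0.015), where it was at 0 in all WT libraries and at most 0.618 CPM in KO, and where the fit of MEP alone did not test it. It also called Cox6b2 higher in libraries labelled CLP of KO, by 2.03 (adjusted p = 0.021).

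Uqcrfs1 (chr13:30540308-30545362, minus strand, mm10) was at 270, 236, 251 and 260 CPM in the WT CMP libraries and at 36.8, 29.0, 24.8 and 26.9 CPM in KO CMP. In GMP the values were 329, 285, 218 and 237 CPM in WT and 43.0, 49.3, 38.7 and 50.5 CPM in KO. In MEP they were 451, 423, 445 and 427 CPM in WT and 43.6, 28.2, 30.6 and 35.2 CPM in KO. No KO library came near a WT library in these populations, and KO means were 11.6%, 17.0% and 7.88% of the WT means in CMP, GMP and MEP. The log2 fold changes were -3.12 ± 0.14 (SE, edgeR adjusted p = 5.45e-06) in CMP, -2.60 ± 0.15 (adjusted p = 3.16e-06) in GMP and -3.67 ± 0.15 (adjusted p = 3.8e-06) in MEP. In LT-HSC, by contrast, the gene was low in both genotypes, at 23.0, 22.6 and 14.2 CPM in WT and 34.7, 14.0, 20.6 and 31.7 CPM in KO. In libraries labelled CLP it was at 131 to 238 CPM in WT and 117 to 256 CPM in KO, and the genotypes overlapped.

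Cox5a (chr9:57521274-57532426, plus strand) gave 256, 237, 235 and 256 CPM in WT CMP and 55.0, 30.2, 19.0 and 26.0 CPM in KO CMP. WT MEP libraries held 387, 333, 342 and 383 CPM and KO MEP libraries 44.8, 11.8, 8.29 and 22.7 CPM. In GMP the gap was smaller, with 279, 289, 357 and 246 CPM in WT and 111, 105, 116 and 159 CPM in KO. The groups did not overlap in any of these populations, and the KO means were 13.2%, 41.9% and 6.06% of WT in CMP, GMP and MEP. The log2 fold changes were -2.93 ± 0.29 in CMP (edgeR adjusted p = 0.000357), -1.31 ± 0.17 in GMP (adjusted p = 0.000476) and -4.05 ± 0.50 in MEP (adjusted p = 0.00136). In libraries labelled CLP the order was turned around: WT held 84.8 to 149 CPM and KO 154 to 195 CPM, a log2 difference of 0.56 ± 0.24 with adjusted p = 1. Exons of Cox5a share 12.8% of their length with Gm26631 on the opposite strand, which libraries that do not keep strand cannot separate.

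Ndufab1 (chr7:122085403-122101886, minus strand) stood at 133, 115, 140 and 152 CPM in WT CMP and 53.7, 29.6, 17.1 and 36.9 CPM in KO CMP. In MEP it was at 253, 218, 216 and 253 CPM in WT and 45.7, 13.8, 8.80 and 17.2 CPM in KO. GMP values were 122, 120, 133 and 118 CPM in WT and 71.8, 77.2, 110 and 111 CPM in KO. KO libraries lay below all WT libraries in each population, but in GMP the KO mean was still 75.0% of WT, against 25.4% in CMP and 9.10% in MEP. The log2 fold changes were -1.99 ± 0.30 in CMP (edgeR adjusted p = 0.00384), -3.47 ± 0.47 in MEP (adjusted p = 0.00228) and -0.46 in GMP, where the adjusted p was 0.136. Ndufab1 has near-identical copies, Gm4459 and Ndufab1-ps, that can share its reads. The row of Ndufab1-ps had a mean of 12.7 CPM in WT MEP and 1.03 CPM in KO MEP.

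Ndufaf6 (chr4:11051045-11076205, minus strand) was the lowest expressed of the 4. WT CMP libraries held 30.1, 24.4, 26.0 and 27.3 CPM and KO CMP libraries 1.78, 0.930, 1.48 and 2.24 CPM. WT MEP libraries held 50.0, 44.0, 29.4 and 38.6 CPM and KO MEP libraries 4.24, 3.41, 2.80 and 3.44 CPM. KO means were 5.97%, 7.42% and 8.58% of WT in CMP, GMP and MEP, with log2 fold changes of -4.05 ± 0.30 (edgeR adjusted p = 7.1e-05), -3.77 ± 0.22 (adjusted p = 3.16e-06) and -3.54 ± 0.24 (adjusted p = 3.65e-05). Unlike the other 3 genes it was also low in libraries labelled CLP of both genotypes, at 2.22 to 8.84 CPM in WT and 0 to 7.01 CPM in KO.

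Sdhd, a membrane anchor of complex II, was lower in KO by less than 2-fold. It was at 359, 303, 297 and 306 CPM in WT CMP and 235, 146, 186 and 211 CPM in KO CMP. In MEP it was at 563, 651, 480 and 625 CPM in WT and 329, 404, 319 and 326 CPM in KO. The KO means were 61.6%, 63.3% and 59.4% of WT in CMP, GMP and MEP. The log2 fold changes were -0.71 in CMP (edgeR adjusted p = 0.0183), -0.70 ± 0.18 in GMP (adjusted p = 0.0406) and -0.76 ± 0.12 in MEP (adjusted p = 0.00591). In LT-HSC the 3 WT libraries held 151 to 160 CPM and the 4 KO libraries 83.7 to 118 CPM, also without overlap, though the log2 fold change of -0.59 ± 0.19 had an adjusted p of 0.743. The other subunits of complex II did not pass the test in any population, with Sdha at 0.44 ± 0.12 in MEP (adjusted p = 0.0689).

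**Figure D2:**
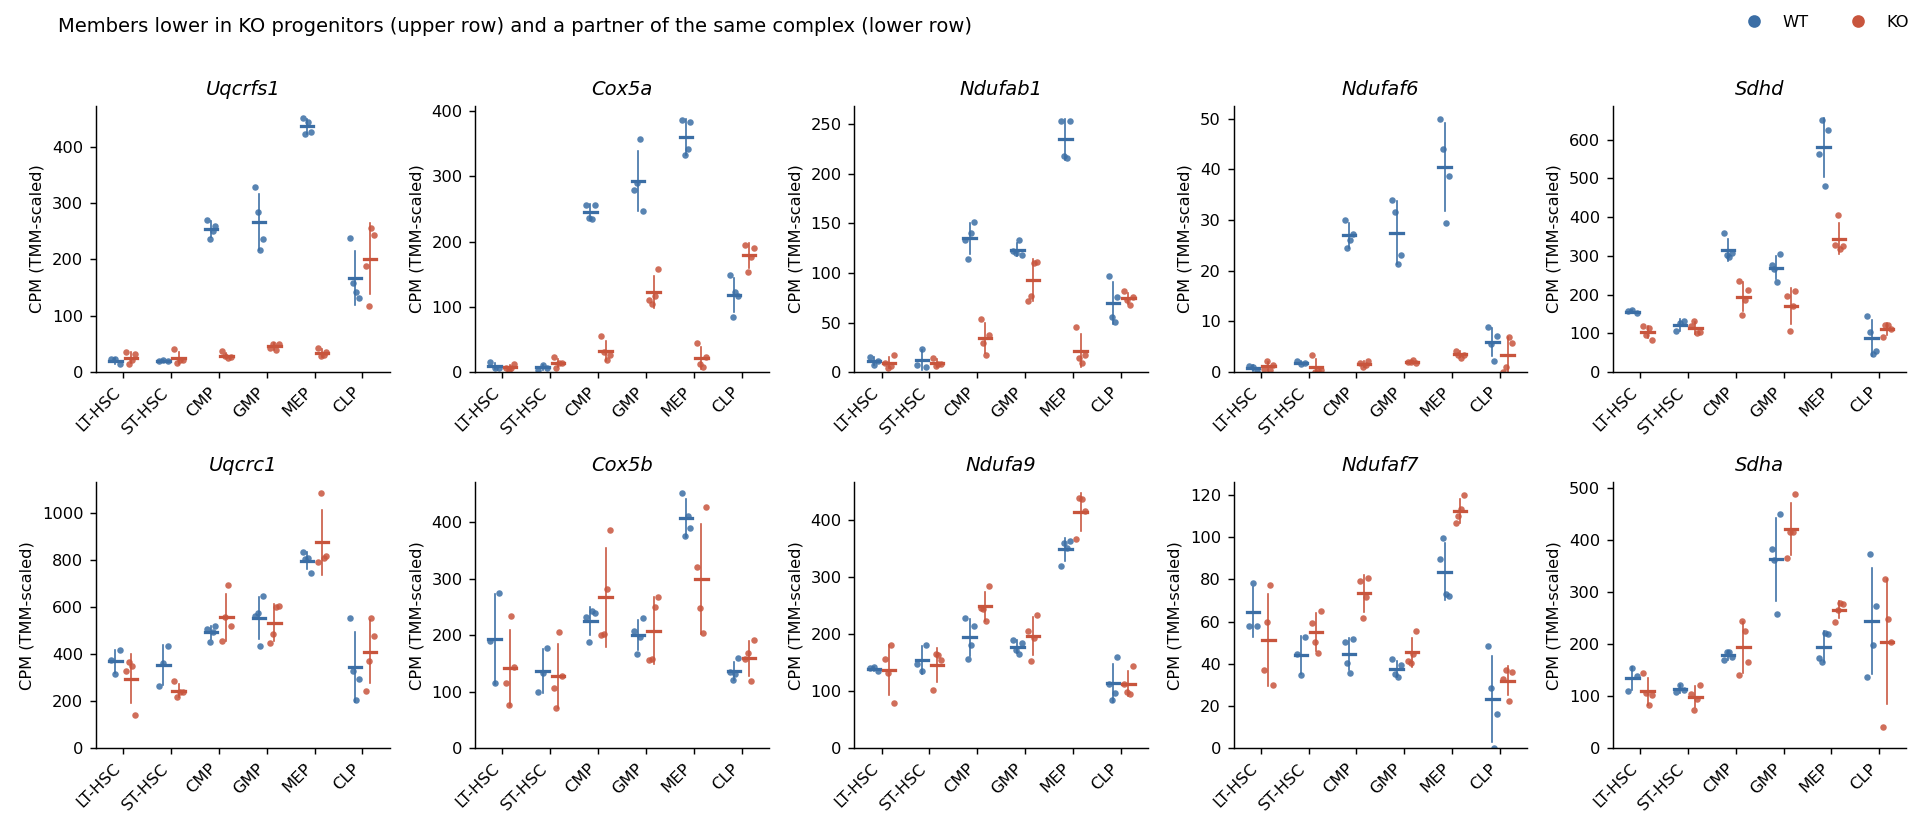
Level in CPM on TMM-scaled library sizes (vertical axes) of the 5 members lower in KO progenitors, upper row, and of a partner of each, lower row, by population and genotype. Points are libraries, dashes are means and whiskers are SD; in CMP, GMP and MEP the KO points of Uqcrfs1, Cox5a, Ndufab1, Ndufaf6 and Sdhd lie below the WT points.

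The promoters of 3 of these genes are shown with those of a partner subunit of complex III (Uqcrc1, a core protein) and of complex IV (Cox5b) that did not pass the test in CMP, GMP or MEP. Each is the 150 bases before the start site in RefSeq on GRCm38.p6, read 5′ to 3′ on the gene's strand. Capitals mark the letters GGGCGG or their reverse complement CCGCCC, the core that SP1 binds.
Uqcrfs1, chr13:30545317-30545466, minus strand: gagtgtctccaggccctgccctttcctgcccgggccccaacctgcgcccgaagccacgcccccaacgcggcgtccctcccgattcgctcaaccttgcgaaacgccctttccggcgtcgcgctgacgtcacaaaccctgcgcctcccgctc
Cox5a, chr9:57521082-57521231, plus strand: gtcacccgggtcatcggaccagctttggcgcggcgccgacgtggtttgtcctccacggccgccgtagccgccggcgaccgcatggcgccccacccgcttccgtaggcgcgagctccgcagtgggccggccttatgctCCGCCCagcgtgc
Ndufab1, chr7:122101849-122101998, minus strand: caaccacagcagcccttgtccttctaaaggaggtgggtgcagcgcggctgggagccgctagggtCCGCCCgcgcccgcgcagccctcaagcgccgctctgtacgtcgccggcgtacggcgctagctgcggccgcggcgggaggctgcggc
Uqcrc1, chr9:108936498-108936647, plus strand: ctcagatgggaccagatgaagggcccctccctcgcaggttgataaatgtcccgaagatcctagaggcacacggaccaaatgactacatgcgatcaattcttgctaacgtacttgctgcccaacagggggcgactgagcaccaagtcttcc
Cox5b, chr1:36691337-36691486, plus strand: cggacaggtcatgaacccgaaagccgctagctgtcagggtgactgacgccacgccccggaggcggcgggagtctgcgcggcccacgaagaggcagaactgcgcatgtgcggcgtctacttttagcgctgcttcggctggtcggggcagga

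The printed windows of Cox5a and Ndufab1 were 74.0% G and C, that of Uqcrfs1 70.0%, that of Cox5b 66.7% and that of Uqcrc1 54.0%. Over the 250 bases before the start, 76 member rows matched a RefSeq entry, with 80 promoters in all. The letters GCATGCGC, the core of the NRF1 site, stood on either strand in 11.25% of these 80 promoters and in 2.26% of the 32851 promoters listed for the genome. The ETS core CCGGAAG stood in 17.5% against 6.91%, GGGCGG in 37.5% against 32.7%, TATAAA in 10.0% against 12.4% and the YY1 core AAGATGGC in 1.25% against 1.56%. These are matches of letters and not measured binding.

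The share of G and C over the first 200 transcript bases was 73.5% in Ndufab1, 73% in Ndufaf6, 70% in Uqcrfs1 and 67% in Cox5a, against a median of 60.5% over the members and 57.5% over all genes tested. Of the 18 tested members at 67% or more, those other than the 4 genes had log2 fold changes in MEP from -0.99 (Atp5b, 69.5%), -0.61 (Cox8a, 69.5%) and -0.49 (Ndufa10, 69%) to 0.20 (Ndufb9, 67.5%), with 0.18 for Atp5j, which had the highest share (79%). Across members, which are not independent replicates, Spearman's rho between this share and the log2 fold change was -0.21 in CMP, 0.03 in GMP (n = 92 each) and -0.17 in MEP (n = 90), and -0.12, 0.16 and -0.06 without the 4 genes. Over all genes tested it was -0.24 in CMP, -0.11 in GMP and -0.14 in MEP (n = 16029, 16544 and 14917). With an offset for this share in each library, a setting chosen after seeing the data, 4 members were called in CMP, 3 in GMP and 4 in MEP. Beyond this offset, the part of base composition in the result was not tested.

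Markers of other cells also differed between the genotypes in these libraries. Of 13 marker lists, that of plasma cells was lower in KO without overlap in all 3 populations, at 65.6 to 115 CPM in WT and 9.71 to 36.6 CPM in KO in CMP, 122 to 158 and 22.4 to 40.4 CPM in GMP, and 60.8 to 116 and 3.17 to 40.2 CPM in MEP. Most of its sum in WT was Xbp1, a transcription factor of secretory cells, with means of 72.6, 125 and 68.8 CPM in WT CMP, GMP and MEP and 19.1, 18.9 and 9.19 CPM in KO. The erythroid list was lower in KO MEP (80.3 to 107 CPM) than in WT MEP (154 to 434 CPM). The CLP list was lower in KO CMP (116 to 145 against 183 to 291 CPM) and in KO GMP (92.2 to 107 against 114 to 185 CPM). The CMP list was higher in KO GMP (up to 1012 CPM, against 678 to 846 CPM with no overlap) and in KO MEP (234 to 290 against 189 to 226 CPM), and the LT-HSC list was higher in KO GMP, at up to 24.3 CPM. The B cell list was near 0 in CMP, at 0.190 to 0.934 CPM in WT and 0 to 0.169 CPM in KO. Of the markers in these lists, 1 of the CLP list and 1 of the B cell list were at 0 in every KO CMP library. The part of these markers in the lower levels of the 4 genes was not tested.

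Library by library, KO MEP replicate 2 read highest of its group for all 4 called genes, and also for Atp5b and Atp5d, which did not pass the test. Atp5b was at 1792, 927, 560 and 974 CPM in KO MEP and at 1747 to 2398 CPM in WT MEP. Atp5d, the delta subunit of the ATP synthase, was at 214, 69.2, 52.5 and 84.0 CPM in KO MEP and at 221 to 269 CPM in WT MEP. For Atp5d all KO MEP libraries lay below the WT libraries, and for Atp5b 3 of 4 did. KO CMP replicate 2 was likewise the highest of its group for Uqcrfs1, Cox5a and Ndufab1, but not for Ndufaf6. What sets these libraries apart was not tested.

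Without the fold limit, CMP was the population in which members moved in both directions. There 10 members were higher (1.71% of all genes were) and 6 lower (5.18% of all genes) at an adjusted p under 0.05 in edgeR. The higher ones rose by 0.42 to 0.78 on the log2 scale. Cox6c, a complex IV subunit, rose by 0.66 (edgeR adjusted p = 0.00648), from 214 to 267 CPM in WT libraries to 326 to 412 CPM in KO libraries. Uqcrc2, a core protein of complex III, rose by 0.42 (adjusted p = 0.0213) and Cox6b2, a testis isoform of a complex IV subunit, by 0.78 (adjusted p = 0.0229). The others were Ndufc2, Ndufaf7, Ndufb5, Ndufb9, Atp5j, Cox7a2 and Uqcrb. The list of 6 marker genes of MEP, none of them at 0, also differed between these libraries. It summed to 567 to 1587 CPM in WT CMP and 2766 to 5593 CPM in KO CMP, with no overlap. Most of that sum was Car1, a carbonic anhydrase of erythroid cells, with means of 877 and 3596 CPM, and Epor, Gata1 and Gfi1b had higher means in KO as well. Klf1, an erythroid transcription factor, had means of 47.7 CPM in WT and 16.9 CPM in KO, and Zfpm1 of 4.63 and 1.49 CPM. The part of these markers in the members' rise was not tested. Cox6c has near-identical copies (Cox6c2 and Gm16399) that can share its reads. Uqcrb has 3 such copies and Ndufb9 has 1, Gm49356, with which its exons share 19.5% of their length. Exons of Uqcrc2, Atp5j and Ndufb5 share 19.7%, 12.7% and 12.3% of their length with genes on the opposite strand. Besides the 4 genes above and Sdhd, Atp5d was lower, by -0.41 with adjusted p = 0.0487. The median log2 fold change over the 92 members tested in CMP was 0.28, with 78 above 0 and 14 below, beside a median of 0.03 over all genes tested. Other lists had similar medians, 0.27 over 83 cytosolic ribosomal protein genes, with 78 above 0, and 0.28 over the 13 genes of oxidative phosphorylation in the mitochondrial genome, with 13 above 0. Mitochondrial-genome genes took 5.94 to 6.57% of the counts in WT CMP and 7.85 to 8.37% in KO CMP. Their share was also higher in KO without overlap in ST-HSC (8.73 to 9.02% against 10.0 to 13.1%) and GMP (3.64 to 4.60% against 4.74 to 5.09%), and the genotypes overlapped in LT-HSC, MEP and libraries labelled CLP.

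In GMP and MEP no member passed the test upward when the population was fitted alone. In GMP 4 members were lower at an adjusted p under 0.05 in edgeR (5.49% of all genes) and in MEP 5 (5.01% of all genes), in both cases the called ones and Sdhd. The members' median was -0.04 in GMP and 0.11 in MEP, beside 0.03 and 0.05 over all genes. The members nearest to a call upward were Cox4i1 at 0.37 ± 0.15 (adjusted p = 0.207) and Ndufaf2, a complex I assembly factor, at 0.39 ± 0.21 (adjusted p = 0.409) in GMP and, after Sdha, Ndufb5 at 0.30 in MEP (adjusted p = 0.103). Exons of Ndufaf2 share 65.6% of their length with B230220B15Rik on the opposite strand, which these libraries cannot separate. The 7 nuclear core subunits of complex I, which carry its flavin and iron-sulfur clusters, were above 0 in 7 of 7 in MEP with a median of 0.20, but none passed the test.

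In the stem cells and in the libraries labelled CLP no member passed the test. In LT-HSC 0 of 91 members had an adjusted p under 0.05 in edgeR (0.0245% of all genes did), in ST-HSC 0 of 92 (0.0185%) and in libraries labelled CLP 0 of 92 (0.00766%). DESeq2 also called 0 members in each of the 3. At an unadjusted p under 0.05 in edgeR there were 2 of 91 members in LT-HSC (843 or 5.16% of all genes). In ST-HSC there were 3 of 92 (994 or 6.13%), and in libraries labelled CLP 1 of 92 (477 or 3.65%). The 2 in LT-HSC were Sdhd and Ndufa10, a complex I subunit, at -0.57 ± 0.24 with adjusted p = 0.91. In ST-HSC the member of smallest p was Cox6a2 (adjusted p = 0.56), at 0 in all WT libraries and at most 0.435 CPM in KO. Ndufa5, another complex I subunit, was at 92.6 to 160 CPM in KO and 84.1 to 89.0 CPM in WT (log2 difference 0.58 ± 0.21, adjusted p = 0.629), and Uqcrc1 was at -0.49 ± 0.19 (adjusted p = 0.733). Atp5b was at -0.75 ± 0.37 in LT-HSC and -0.72 ± 0.33 in ST-HSC (adjusted p = 0.998 and 0.854). In LT-HSC the largest upward differences by p were Uqcrh at 0.40 (adjusted p = 0.998) and Cox7a2l at 0.35 (adjusted p = 0.998). The median over the members was -0.05 in LT-HSC, 0.16 in ST-HSC and 0.08 in libraries labelled CLP, beside 0.06, 0.04 and 0.07 over all genes. In libraries labelled CLP the members of smallest p were Cox5a and Atp5l upward (0.79 ± 0.35) and Ndufa4l2 (-2.97 ± 1.92) and Ndufs1 (-0.52 ± 0.37) downward, each with adjusted p = 1. Atp5l has 9 near-identical copies that can share its reads.

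**Figure D3:**
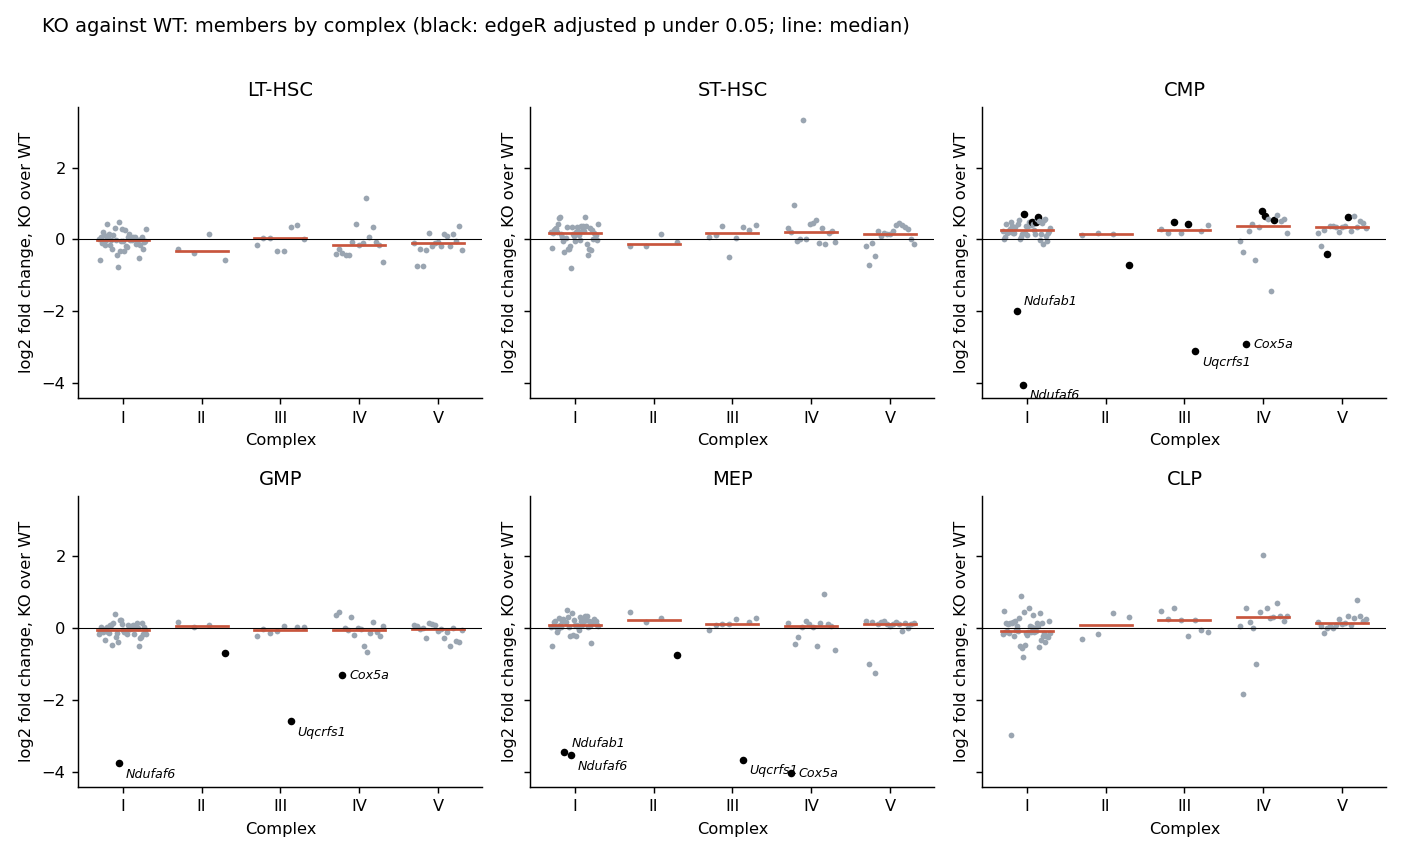
Log2 fold change of KO over WT (vertical axes) for each tested member, by complex, in each population. Black points have an edgeR adjusted p under 0.05 and lines are medians of a complex; Uqcrfs1, Cox5a, Ndufab1 and Ndufaf6 lie far below the other members of their complexes in CMP and MEP, and all but Ndufab1 in GMP.

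Counted by non-overlap of libraries, 5 of 94 members had every KO library below every WT library in at least 3 populations: Sdhd in 4, and Cox5a, Ndufab1, Ndufaf6 and Uqcrfs1 in 3. Over all genes this share was 3.03%. Ndufa5 and Sdhc, another membrane anchor of complex II, had KO above WT in 3 populations, which makes 2 of 94 members, against 0.581% of all genes. For Ndufa5 the means were 66.0 CPM in WT CMP and 92.5 CPM in KO CMP, and 126 CPM in WT MEP and 153 CPM in KO MEP.

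Whether the effect of genotype differed among populations was tested in 1 fit of all 46 libraries. Of 94 members tested, 3 passed at an adjusted p under 0.05 in edgeR: Uqcrfs1 (adjusted p = 3.27e-11), Cox5a (7.76e-07) and Ndufab1 (0.000764). This is near the 2.65% of all genes that passed. Ndufaf6 (adjusted p = 0.148) and Sdhd (adjusted p = 0.146) did not pass in that fit. Without the libraries labelled CLP, a setting added after seeing the data, 5 members passed, the same 3 among them. Also 5 passed without KO replicate 2 and without KO replicate 3 of every population. The 2.65% of all genes belongs to the fit of all 46 libraries, so these counts cannot be set against it.

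The comparisons among populations within a genotype asked how the members vary between stem cells and progenitors. Most members varied. In WT 80 of 94 members tested, or 85.1%, differed among the 6 populations (F test in edgeR, adjusted p under 0.05), against 44.6% of all genes, and 81 of the 94 had their highest mean in MEP. In KO 75 of 92, or 81.5%, differed, against 40.2% of all genes, and 76 had their highest mean in MEP. Without the libraries labelled CLP, a setting chosen after seeing the data, 84 of 93 members differed in WT and 74 of 92 in KO. The shares of all genes above come from the fits with those libraries, so these counts cannot be set against them. The lowest mean was in libraries labelled CLP for 53 members in WT and 50 in KO. The contrasts below that use LT-HSC share those libraries within a genotype, while WT and KO contrasts share none. All of them use libraries of the KO against WT contrasts above, so they are not independent of those.

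No member passed the test between ST-HSC and LT-HSC in edgeR. None of 94 was called in WT (0.175% of all genes) and none of 92 in KO (0.118%). At an unadjusted p under 0.05 in edgeR there were 12 of 94 members in WT (1771 or 8.85% of all genes). In KO there were 2 of 92 (1663 or 8.57%). DESeq2 called 0 in WT and 1 in KO.

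In CMP and GMP a few members were called higher than in LT-HSC, and in GMP their share was near that of all genes. In WT CMP 7 of 94 members were called higher (4.17% of all genes) and 0 lower (1.36%). They were Cox6a2, Ndufaf6, Cox5a, Uqcrfs1, Ndufab1, Atp5b and Sdhd, with log2 fold changes of 5.03 ± 0.55 for Ndufaf6, 4.68 ± 0.37 for Cox5a, 3.67 ± 0.22 for Uqcrfs1 and 3.58 ± 0.42 for Ndufab1 in edgeR. In KO CMP also 7 of 92 were called higher (2.47%) and 0 lower (1.44%), but Ndufaf6, Uqcrfs1 and Sdhd were not among them, and Cox5a rose by 2.16 ± 0.49 and Ndufab1 by 1.89 ± 0.48. The KO CMP count was 4 without KO LT-HSC replicate 5. In WT GMP 9 members were called higher (9.93%) and 2 lower (6.35%), and in KO GMP 9 higher (9.22%) and 3 lower (6.70%). Sdha, the flavoprotein of complex II, was higher in GMP by 1.47 ± 0.27 in WT and 2.02 ± 0.37 in KO. Uqcrh, the hinge protein of complex III, was lower by -1.14 ± 0.17 in WT and -1.42 ± 0.22 in KO. Cox7a2l, which joins complexes III and IV in supercomplexes, was lower by -1.63 ± 0.38 and -1.74 ± 0.39. Its library values ran from 318 to 455 CPM in WT LT-HSC and from 63.4 to 182 CPM in WT GMP, and a near-identical copy (Gm6969) can share its reads. The median over the members was -0.24 in WT GMP and -0.19 in KO GMP. Without the fold limit 16 members were lower in WT GMP (8.65% of all genes) and 7 in KO GMP (8.22%).

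In MEP members of each complex were called higher, as in WT CMP and WT GMP, with more members called in total. Against LT-HSC 21 of 94 members were called higher in WT (5.16% of all genes) and 2 lower (7.42%), and in KO 26 of 92 higher (5.15%) and 0 lower (8.92%). The median log2 fold change was 0.51 in WT and 0.74 in KO, beside -0.03 and -0.13 over all genes, with 85 of 94 and 87 of 92 members above 0. By complex the WT medians were 0.41 for complex I, 0.66 for II, 0.87 for III, 0.64 for IV and 0.56 for V.

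The largest gains in WT MEP over LT-HSC were those of the genes low in KO: Ndufaf6 by 5.57 ± 0.56, Cox5a by 5.19 ± 0.38, Uqcrfs1 by 4.41 ± 0.23 and Ndufab1 by 4.34 ± 0.44 (edgeR adjusted p at most 1.04e-06). The WT MEP libraries enter this contrast and that of KO against WT, so the 2 results are not independent. Of these 4 genes only Cox5a was called in KO MEP, with 1.60 ± 0.48. Sdhd rose by 1.86 ± 0.27 in WT and 1.76 ± 0.20 in KO. Atp5b rose by 2.22 ± 0.26 and 2.05 ± 0.36, and Atp5g1, a gene for the c ring of the ATP synthase rotor, by 1.42 ± 0.16 and 1.87 ± 0.21. Ndufs1, the largest core subunit of complex I, rose by 1.33 ± 0.14 and 1.69 ± 0.28. It read 89.7 ± 11.1 CPM in WT LT-HSC (SD, n = 3), 230 ± 17.7 CPM in WT MEP (SD, n = 4) and 294 ± 43.9 CPM in KO MEP (SD, n = 4). Of the 92 members tested in both genotypes, 16 were called in the same direction in both (7.08% of all genes were).

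MEP also stood above GMP, its sister population. In WT 17 of 94 members were called higher (4.58% of all genes) and 2 lower (10.2%), and in KO 36 of 92 higher (5.36%) and 3 lower (10.3%). Without the fold limit 61 members were higher in WT (7.99% of all genes) and 59 in KO (7.58%). The median log2 fold change was 0.77 in WT and 0.93 in KO, beside -0.21 and -0.25 over all genes. Cytosolic ribosomal protein genes had medians of 0.89 in WT, with 74 of 84 higher without the fold limit, and 0.97 in KO, with 71 of 85. Ndufb9, a complex I subunit, rose by 1.34 ± 0.11 in WT and 1.46 ± 0.19 in KO, Atp5g1 by 1.41 ± 0.14 and 1.47 ± 0.21, and Sdhb, the iron-sulfur subunit of complex II, by 1.19 ± 0.12 and 1.31 ± 0.20. Cox5a and Ndufab1 went the other way in KO, at -2.54 ± 0.50 (edgeR adjusted p = 0.000969) and -2.17 ± 0.49 (adjusted p = 0.00315). With only these 2 groups in the fit 40 members were called higher in WT (12.4% of all genes) and 54 in KO (13.6%). The WT count of 19 also depended on single libraries: it was 29 without WT GMP replicate 2, 35 without WT GMP replicate 4 and 12 without WT MEP replicate 2.

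**Figure D4:**
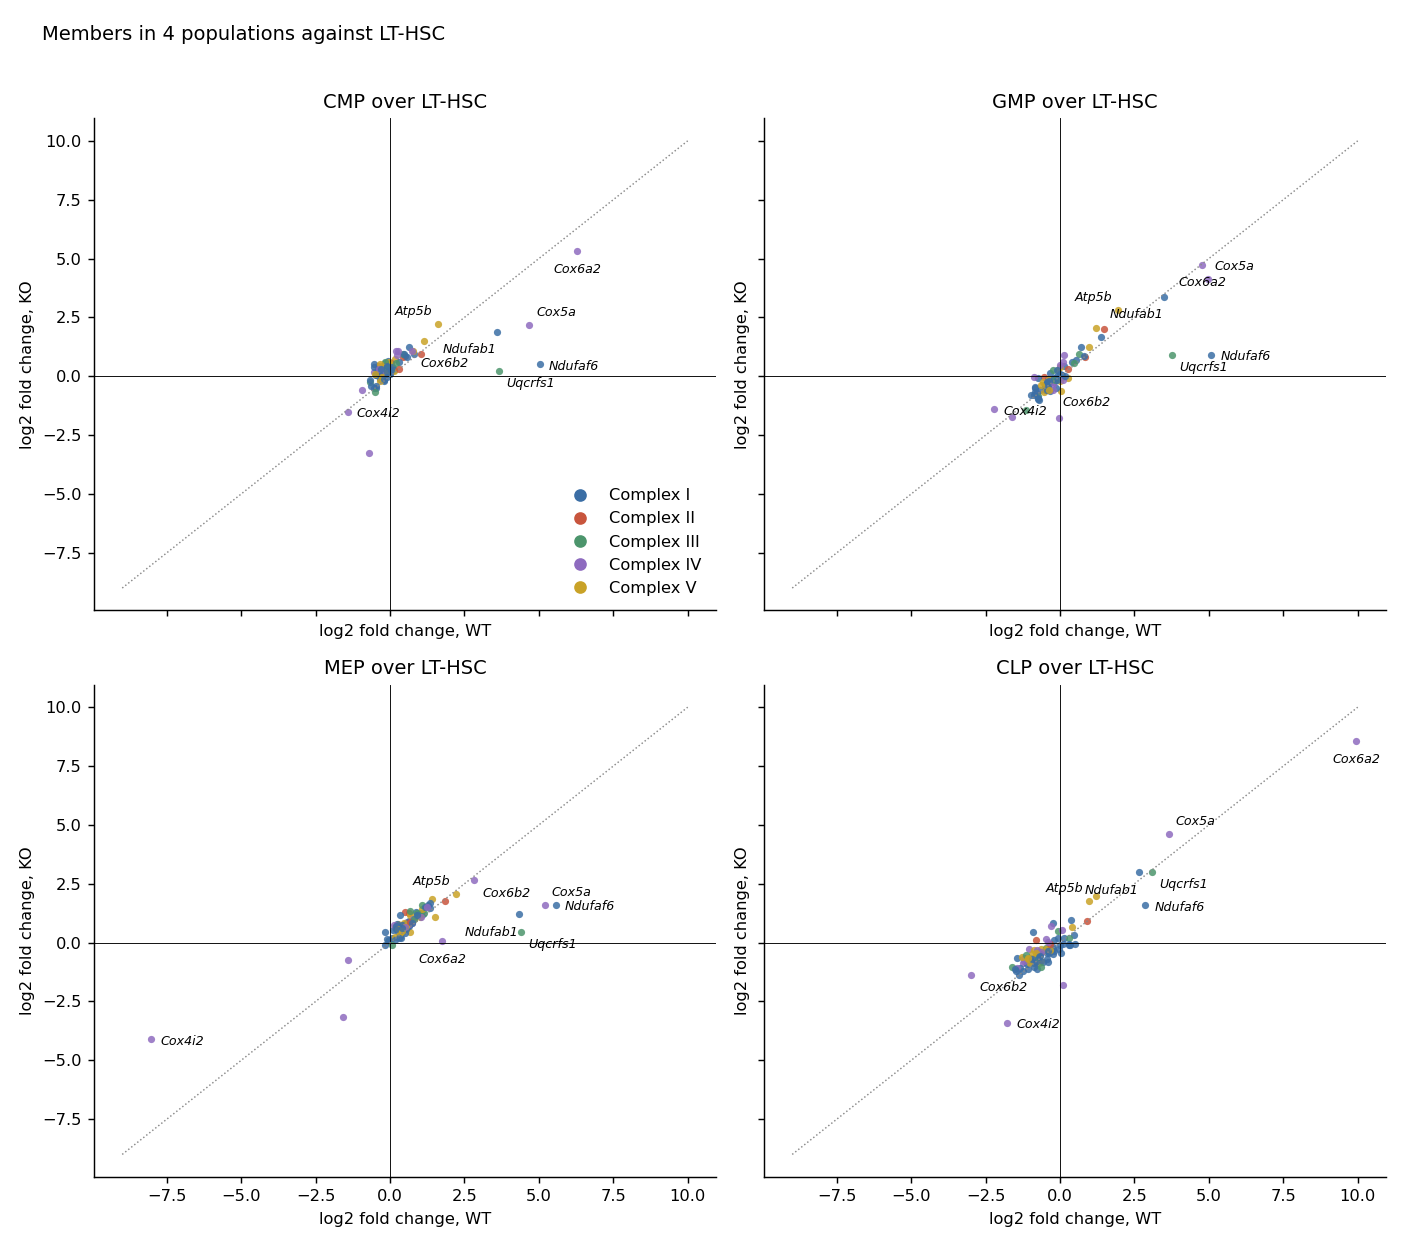
Log2 fold change of 4 populations over LT-HSC for each member, in WT (horizontal axes) and KO (vertical axes), coloured by complex, with the line of equal change dotted. Most members lie along the line, while Uqcrfs1, Ndufaf6, Cox5a and Ndufab1 lie below it in MEP. Groups at 0 make the positions of Cox4i2 and Cox6a2 depend on the prior count.

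In libraries labelled CLP members were called in both directions against LT-HSC. In WT 7 of 94 were called higher (11.0% of all genes) and 22 lower (15.0%), and in KO 6 of 92 higher (9.75%) and 10 lower (11.0%). The WT count depended on the scaling, with 9 higher and 13 lower under DESeq2 and under its size factors in edgeR, and with 5 higher and 15 lower when only these 2 groups were fitted. In KO the latter fit gave 6 higher and 2 lower, and leaving out KO LT-HSC replicate 4 gave 6 and 3. The shares of all genes above come from the fit of all 6 populations under TMM. Counts under other settings cannot be set against them. The median log2 fold change was -0.63 in WT and -0.43 in KO, beside -0.11 and -0.07 over all genes. Uqcrb fell by 1.61 on the log2 scale in WT and Ndufa8, a complex I subunit, by 1.52, to 139.9 ± 28.4 CPM and 70.8 ± 12.7 CPM (SD, n = 4). Immunoglobulin transcripts take a large share of these libraries, and the part of this in the lower levels was not tested. The TMM factors, which scale for such a share, were 0.546 to 1.08 in libraries labelled CLP and 0.949 to 1.18 in the others. The KO count was 9 without KO LT-HSC replicate 4 and 25 without KO CLP replicate 5.

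Several subunits of complex IV exist as a common and a tissue-restricted isoform, and these were used unevenly. Cox6b2 made up 17.7% of the CPM of Cox6b1 and Cox6b2 together in WT MEP (16.3 to 19.2% over the libraries) and 19.4% in KO MEP (18.0 to 21.4%), against 4.73% in WT LT-HSC and 4.73% in WT GMP. Its level was 169, 204, 170 and 157 CPM in WT MEP and 19.8, 20.0, 24.2 and 16.8 CPM in WT GMP, with no overlap, a log2 difference of 3.04 ± 0.69 (edgeR adjusted p = 0.00363). In KO the difference was 3.22 ± 0.42 (adjusted p = 1.48e-05).

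Cox6a2, the heart and muscle isoform of another subunit, was found mainly in libraries labelled CLP, at 25.3, 21.2, 28.5 and 39.4 CPM in WT and 12.1, 0.901, 26.3 and 20.5 CPM in KO. It was at 0 in every stem cell library of WT mice, so that its mean in WT libraries labelled CLP was at least 669.1-fold higher than a floor of 3 counts per library in WT LT-HSC. It made up 8.52% of the CPM of Cox6a1 and Cox6a2 there (6.47 to 10.3%) and at most 0.926% in any other WT library. Markers of plasmacytoid dendritic cells summed to 97.3 to 280 CPM in WT and at most 41.3 CPM in KO libraries labelled CLP. Of the 5 markers, 2 in WT and 1 in KO were at 0 in every such library. The study's CLP gate was Lin- cKit+, meant to leave out cells with lineage markers. The part of the dendritic cell markers in the level of Cox6a2 was not tested. Cox4i2, the isoform of lung and of low oxygen, was highest in LT-HSC, at 13.3, 1.07 and 8.72 CPM in WT and 5.40 to 7.17 CPM in KO, where it made up 0.931% and 1.10% of the pair with Cox4i1. It was at 0 in all 4 WT MEP libraries, at least 167.8-fold below WT LT-HSC by the same floor (at least 106.7-fold without WT LT-HSC replicate 2), and at 0 to 0.618 CPM in KO MEP. The 3 genes of the c ring encode the same mature protein. Atp5g1 gave 49.2 ± 1.87% of their summed CPM in WT MEP and 50.7 ± 2.30% in KO MEP, against 33.2 ± 5.27% in WT LT-HSC and 42.2 ± 2.40% in WT GMP (SD).

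**Figure D5:**
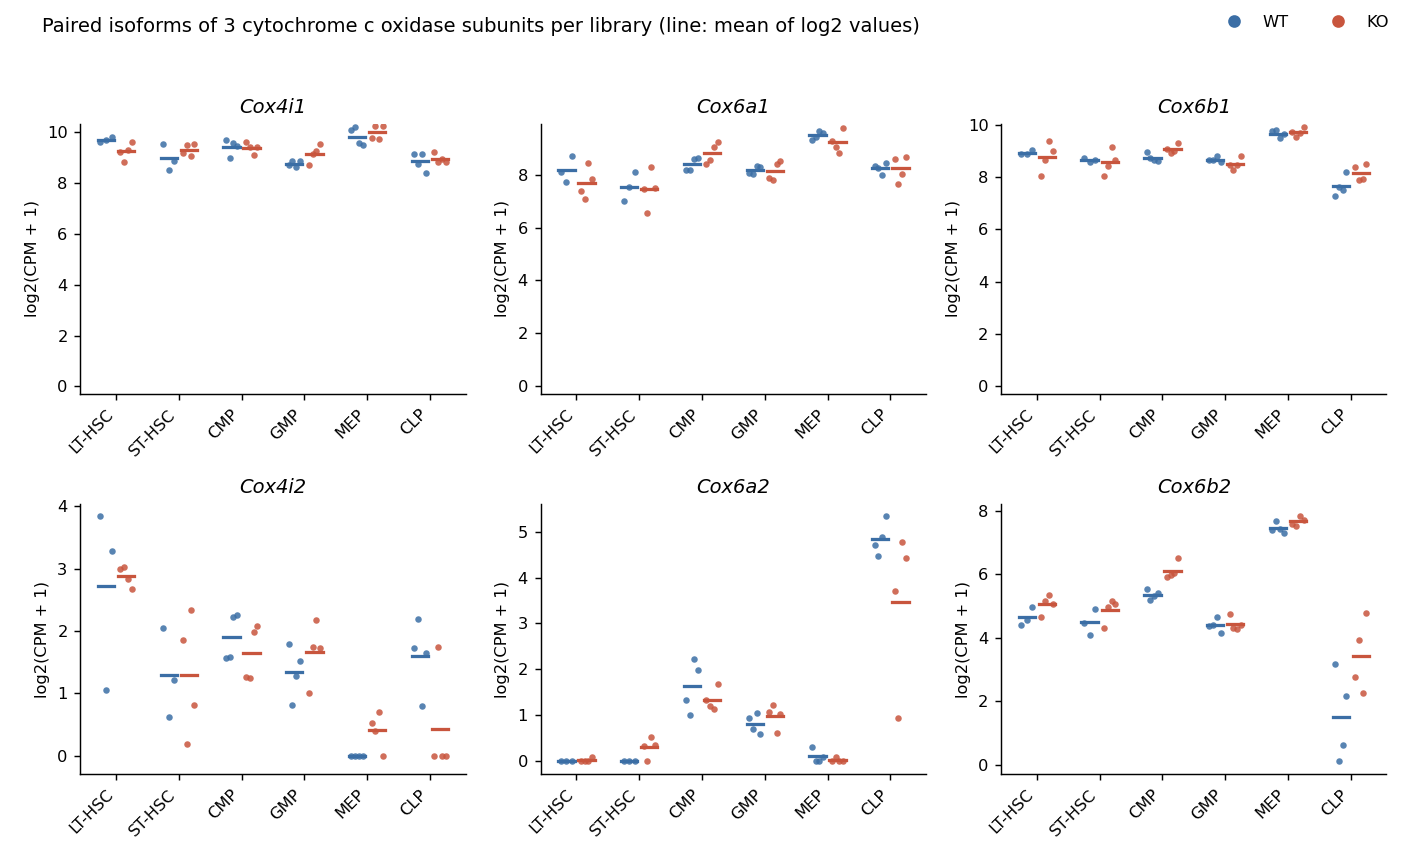
Level of 3 common isoforms of cytochrome c oxidase subunits (upper row) and their tissue-restricted partners (lower row), as log2(CPM + 1) on the vertical axes, by population and genotype. Points are libraries and lines are means of the log2 values; Cox6b2 is highest in MEP, Cox6a2 in libraries labelled CLP and Cox4i2 in LT-HSC.

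The other genes of the pathway were read from lists. Of the 13 genes of oxidative phosphorylation in the mitochondrial genome, 0 were called in KO against WT in any population. Over all genes 0.00766% (libraries labelled CLP) to 4.57% (CMP) were called. Without the fold limit 3 of the 13 were higher in CMP (1.71% of all genes). In MEP against GMP 11 of 13 were called higher in WT (4.58% of all genes) and 11 of 13 in KO (5.36%), with medians of 1.20 and 1.13. Among 49 further genes of electron transport and of complex assembly, 6 were called lower in KO CMP (3.92% of all genes), 6 in KO GMP (4.06%) and 7 in KO MEP (4.21%), and none higher. Cyc1, the cytochrome c1 that sits beside the Rieske protein in complex III, was at 218 ± 23.1 CPM in WT CMP and 41.6 ± 11.4 CPM in KO CMP (SD, n = 4 each), a log2 fold change of -2.40 ± 0.19 (edgeR adjusted p = 0.000108), and at -2.81 ± 0.14 in MEP (adjusted p = 1.22e-05). Sdhaf1, an assembly factor of complex II, was at -3.50 ± 0.31 in CMP, -3.96 ± 0.49 in GMP and -3.91 ± 0.39 in MEP. Cox18 (-3.26 ± 0.20 in MEP) and Cox11 (-2.68 ± 0.40 in MEP), which help to assemble complex IV, and Tmem70 (-3.41 ± 0.48 in MEP), which helps to assemble the ATP synthase, were lower as well. In the citric acid cycle 1 of 18 genes, Idh2, was called lower in CMP (-2.31 ± 0.25) and in MEP (-2.21 ± 0.20), a share near the 3.92% and 4.21% of all genes. Of the 16 genes listed as regulators of mitochondrial genes, 15 were tested in GMP, where Hif1a, a transcription factor of the response to low oxygen, was called lower (-1.76 ± 0.22, adjusted p = 0.000445; 4.06% of all genes were) and none higher.

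A filter on low counts left 90 to 94 members tested in a comparison. In all 18 comparisons 89 members were tested, and 4 in none: Cox8b, Cox8c, Ndufa11b and a second row of Atp5o with no count. Cox7b2, Ndufa4l2, Cox6a2, Cox4i2 and Cox7a1 were tested in 6 to 17 of the 18.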

How the data were processed

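RNA of sorted cells had been amplified by a full-length SMART-Seq2 type protocol. By the study's methods, reads were trimmed with Trim Galore and aligned with HISAT2 to mm10. The sources used here list mm9 beside mm10 and differ on the versions of these tools. The deposited values are raw gene counts, and the counter is not given in the sources used here. The libraries do not keep strand. A second deposited table was not analysed here. The members and lists were chosen with earlier results of these data known. Counts were filtered with filterByExpr, scaled by TMM and tested by edgeR 4.0.16 (R 4.3.3, limma 3.58.1) with its quasi-likelihood test and Benjamini-Hochberg adjusted p over all genes tested. Calls needed an adjusted p under 0.05 and a 2-fold change, with a prior count of 2. KO and WT were compared within a population, populations within a genotype, and the interaction over 46 libraries. DESeq2 1.42.0, other scaling and filters, the replicate number as a block and each library left out were alternatives. The script was tested on simulated data. Genes named were the core subunits and isoform sets, up to 10 called members of largest change in each direction, the 2 of smallest p in each direction between genotypes, members with a called interaction, and those without overlap in 3 or more populations. Genes of the other lists, Atp5d and Atp5b in single libraries and Ndufab1-ps were named after their values were seen.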

Additional observations from a re-analysis of the deposited data

Results flagged for a closer look

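In groups of 4 libraries, 130 sets of values were tested by Dixon's ratio at its 95% critical value, and 11 held a library far from the other 3. Chance gives about 1 in 20 such sets. In WT CMP, replicate 2 was high for Sdhd, at 358.7 CPM against 297 to 306 CPM, and for Cox6c, at 266.6 CPM against 214 to 218 CPM. In KO MEP, replicate 5 had a summed member level of 31603.5 CPM against 28552 to 28803 CPM, replicate 3 held 404.4 CPM of Sdhd against 319 to 329 CPM, and replicate 2 held 751.2 CPM of Atp5g1 against 871 to 876 CPM. Among the libraries labelled CLP of KO, replicate 2 held 386 CPM of Atp5b against 1029 to 1108 CPM, and replicate 5 held 215.5 CPM of Atp5g1 against 158 to 166 CPM.

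The other 4 such libraries concerned members near 0. Ndufaf6 was at 3.357 CPM in KO ST-HSC replicate 2 and at 0 to 0.420 CPM in the others. Cox6a2 was at 0.0527 CPM in KO LT-HSC replicate 5 and at 0.0607 CPM in KO MEP replicate 3, and Cox4i2 at 2.325 CPM in KO CLP replicate 3, each with the other libraries of its group at 0.

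The effect of genotype differed among populations for Uqcrfs1 (edgeR adjusted p = 3.27e-11), Cox5a (7.76e-07) and Ndufab1 (0.000764), which were called lower in KO CMP and MEP and did not pass the test in LT-HSC, ST-HSC or libraries labelled CLP.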

How the results depend on the processing

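Of 3769 alternative values for 145 single-gene results, 3574 stayed on their side of the threshold, 195 lost the call and 0 changed direction. Of 434 alternative medians 19 moved. Among these were 8 of WT MEP against GMP, 6 of WT GMP against LT-HSC and 3 of WT CLP against LT-HSC. Without the fold limit the counts were 16 for KO against WT in CMP (6.89% of all genes). Against LT-HSC they were 12, 28, 43 and 57 in WT CMP, GMP, MEP and CLP and 11, 20, 41 and 32 in KO. Over all genes the shares were 6.90, 19.5, 14.9 and 29.5% in WT and 4.51, 18.3, 16.1 and 23.4% in KO. For MEP against GMP the counts were 64 in WT (19.3% of all genes) and 62 in KO (18.5%). With all 46 libraries in a single fit, KO against WT gave 1 call in GMP and 1 in CLP. With only the compared groups in the fit, WT MEP against GMP gave 41 calls and KO CLP against LT-HSC 8. DESeq2 gave 1 call for KO ST-HSC against LT-HSC. Without the libraries labelled CLP, a setting chosen after seeing the data, the interaction count was 5. ST-HSC, CMP, GMP and MEP against LT-HSC then gave 0, 7, 13 and 24 calls in WT and 0, 9, 12 and 27 in KO, and MEP against GMP 23 and 40. The causes were not tested, except that dropping the fold limit can only add calls. Shares of all genes called come from the fits as first described, apart from those of the fits of only MEP and GMP. Counts without the fold limit come from the fits as first described too. Counts under other settings cannot be set against these shares.

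With single libraries left out, KO against WT gave 4 to 5 calls in CMP, 3 in GMP, 4 to 6 in MEP and 0 elsewhere. Counts ran from 6 to 8, 10 to 14, 18 to 25 and 23 to 35 for WT CMP, GMP, MEP and CLP against LT-HSC, and from 4 to 8, 11 to 16, 20 to 34 and 9 to 25 for KO. MEP against GMP gave 12 to 35 in WT and 30 to 48 in KO, the test over 6 populations 76 to 84 in WT and 65 to 78 in KO, and the interaction 3 to 5. Whether equal replicate numbers mark a shared mouse or day is not stated. Of 22 pairs of equal number across genotypes 4 correlated over 0.1 (r from -0.0725 to 0.113), of 60 across KO populations 21 (-0.0522 to 0.327) and of 51 across WT populations 9 (-0.0804 to 0.153), so not every pair did. With the replicate block KO against WT gave 0, 0, 4, 3, 4 and 0 calls in LT-HSC, ST-HSC, CMP, GMP, MEP and CLP. The block gave 0, 7, 11, 22, 27 and 19 calls in the WT contrasts and 0, 9, 12, 27, 16 and 42 in KO (ST-HSC, CMP, GMP, MEP and CLP against LT-HSC, then MEP against GMP), 80 and 77 members over the 6 populations, and 3 interactions, so no count moved by over 1.5 times.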
